A study of Homo sapiens with 6 samples.

Results

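The integrated stress response is the pathway by which cells short of amino acids, or under stress in the endoplasmic reticulum or the mitochondria, phosphorylate the translation initiation factor eIF2 and favour translation of the transcription factor ATF4. ATF4, often paired with a C/EBP protein, then raises the transcription of genes for amino acid supply and of genes that feed back on the response. ATF4 and ATF5 are controlled largely through upstream open reading frames in their mRNA, so their transcript level is a partial measure of their activity. The genes described here are 10 regulators and feedback genes of this pathway, taken by symbol from a list of names and found as 10 of 38557 genes in the count tables. The list was chosen with earlier results of these data known. Shares of these genes set beside shares of all genes are therefore a description and no independent test. They are the basic leucine zipper factors ATF4, ATF5, DDIT3 and CEBPB, the feedback and signalling genes TRIB3, CHAC1, SESN2 and DDIT4, and the metabolic enzymes PCK2 and ASNS.

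RNA was sequenced from cardiomyocytes made from WTC11, an established line of human induced pluripotent stem cells, labelled as wild type in every sample. The cells were kept either in RPMI plus B27, a serum-free supplement (3 libraries), or in DMEM plus fatty acids (3 libraries), and the labels number the biological replicates 1 to 3 in both media. The labels state neither what the media contained nor how long the cells spent in them, and p values measure the spread between these samples. Libraries held 23232324 to 31035389 gene counts, and a count of 0 would still allow a level of 0.0967 to 0.129 CPM, the unit used throughout, which divides counts by library size.

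Between media, 219 of 16107 genes tested were called at an adjusted p under 0.05, or 1.36% (47 with more and 172 with less RNA in DMEM plus fatty acids, or 78.5% lower; 63.4% lower under scaling by total counts). Cardiomyocyte markers were abundant in both media, with a summed level of 28778 to 35050 CPM over 12 genes in RPMI plus B27 and 22643 to 32181 CPM in DMEM plus fatty acids. Of these, 8 of 12 were lower in DMEM plus fatty acids. Without a replicate term 0 passed, and 4 had an unadjusted p under 0.05, 3 lower and 1 higher. NPPA, MYH7 and ACTN2 passed as lower with the replicate number as a block (edgeR adjusted p 0.0460, 0.0359 and 0.0494). MYH6 was the higher gene, at 3504 to 5653 against 6760 to 10620 CPM, without overlap (log2 fold change 0.86 ± 0.27, edgeR adjusted p 0.166 without and 0.0797 with the block). Markers of several other cell types moved with the medium, while the 6 pluripotent cell markers summed to 16.8 to 58.1 against 24.7 to 62.1 CPM. The 15 fibroblast and stromal markers summed to 7359 to 15458 CPM against 1192 to 2885 CPM, with 14 of 15 lower. Without the block 7 of them passed as lower, and with it 11. The 10 smooth muscle markers summed to 2301 to 2985 against 825 to 1649 CPM, with 10 of 10 lower, and the 8 epicardial markers to 1358 to 1647 against 628 to 706 CPM, with 5 of 5 tested lower. Of the smooth muscle markers 2 passed as lower without the block and 4 with it, and of the epicardial markers 1 and 3. Among all 16107 tested genes, 172 and 551 were called lower in these 2 fits. The keratin KRT8 made up most of the epicardial sum (1065 to 1480 against 538 to 662 CPM), and KRT19 most of the rest. TBX18, BNC1 and ALDH1A2 reached at most 7.72 CPM, and WT1, UPK3B and MSLN had too few counts to be tested. WT1 had 23, 8 and 13 counts in RPMI plus B27 and 2, 2 and 5 in DMEM plus fatty acids. UPK3B had 7, 7 and 10 against 2, 4 and 11 counts, and MSLN at most 3. The 8 endothelial markers summed to 55.9 to 249.6 against 119.8 to 471.3 CPM. KDR made up most of that sum (27.5 to 238.9 against 114.5 to 463.2 CPM) and passed as higher with the block (adjusted p 0.0245), while the other 3 of 4 tested were lower. The remaining 4 had too few counts to be tested, and of these CDH5 and ERG had 1 to 11 and 1 to 8 counts in RPMI plus B27 and 0 in all 3 DMEM plus fatty acids libraries. In bulk RNA, fewer cells of a type and less RNA per cell cannot be told apart, and the part of these shifts in the results below was not tested.

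Promoters are where ATF4 is known to act on its targets, through the C/EBP-ATF response element. Its core was searched as TGATGNAA on both strands, from 250 bases before to 50 bases after each RefSeq gene start (GRCh38.p14). All 10 genes matched the promoter table, with 18 windows, and 2 of the 10 held a match, CHAC1 and ASNS. Among all 35116 promoter windows 3.62% held one, and among the 12007 genes tested here that have a window, 2.97%. The stretches around both matches are shown because they place a known recognition sequence of the pathway beside 2 of the genes measured here. The first lies at chr15:40953232-40953299 on the plus strand, with its match starting 209 bases before the CHAC1 start and reading as the reverse complement, and the second at chr7:97872439-97872506 on the minus strand, with its match starting 68 bases before an ASNS start. Capitals mark the match.
CHAC1: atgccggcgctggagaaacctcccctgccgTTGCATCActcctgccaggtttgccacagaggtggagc
ASNS: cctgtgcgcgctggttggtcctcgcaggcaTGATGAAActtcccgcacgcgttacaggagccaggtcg
The other 8 genes held no such letters within this window.

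Among the 10 genes, TRIB3, PCK2 and CHAC1 had the largest differences between media, all toward DMEM plus fatty acids, and ATF4 itself had a log2 fold change near 0. Without a replicate term, 0 of the 10 passed (edgeR quasi-likelihood test, Benjamini-Hochberg over all genes), where 0.292% of tested genes were called higher. At an unadjusted p under 0.05, 7 of the 10 were higher in DMEM plus fatty acids and 0 lower, against 7.7% of all tested genes higher. Libraries with the same replicate number deviated together across genes, and with that number as a block 3 of the 10 rose, TRIB3, CHAC1 and PCK2, against 1.36% of tested genes called higher in that fit. These 3 also passed in each of the 3 blocked fits that left out 1 replicate number in both media, an alternative added after the data were seen, where 4.34%, 0.447% and 1.47% of genes were called higher without replicates 1, 2 and 3. DESeq2's Wald test called 4 of the 10 higher, the same 3 and SESN2, against 2.08% of the 17767 genes to which it gave an adjusted p. The median fitted log2 fold change of the 10 was 1.22, and that of all tested genes 0.01. The 3 libraries of each medium did not overlap for 5 of the 10 (TRIB3, CHAC1, SESN2, PCK2 and ASNS), all higher in DMEM plus fatty acids. Of all tested genes, 12.8% were higher in DMEM plus fatty acids without overlap. All 3 replicate pairs were higher by at least 2-fold in DMEM plus fatty acids for TRIB3, CHAC1, PCK2 and ASNS, as for 0.683% of all tested genes. ASNS leaves both counts, and the 7 at an unadjusted p under 0.05 become 6, when its reads are summed with those of an overlapping gene.

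**Figure D1:**
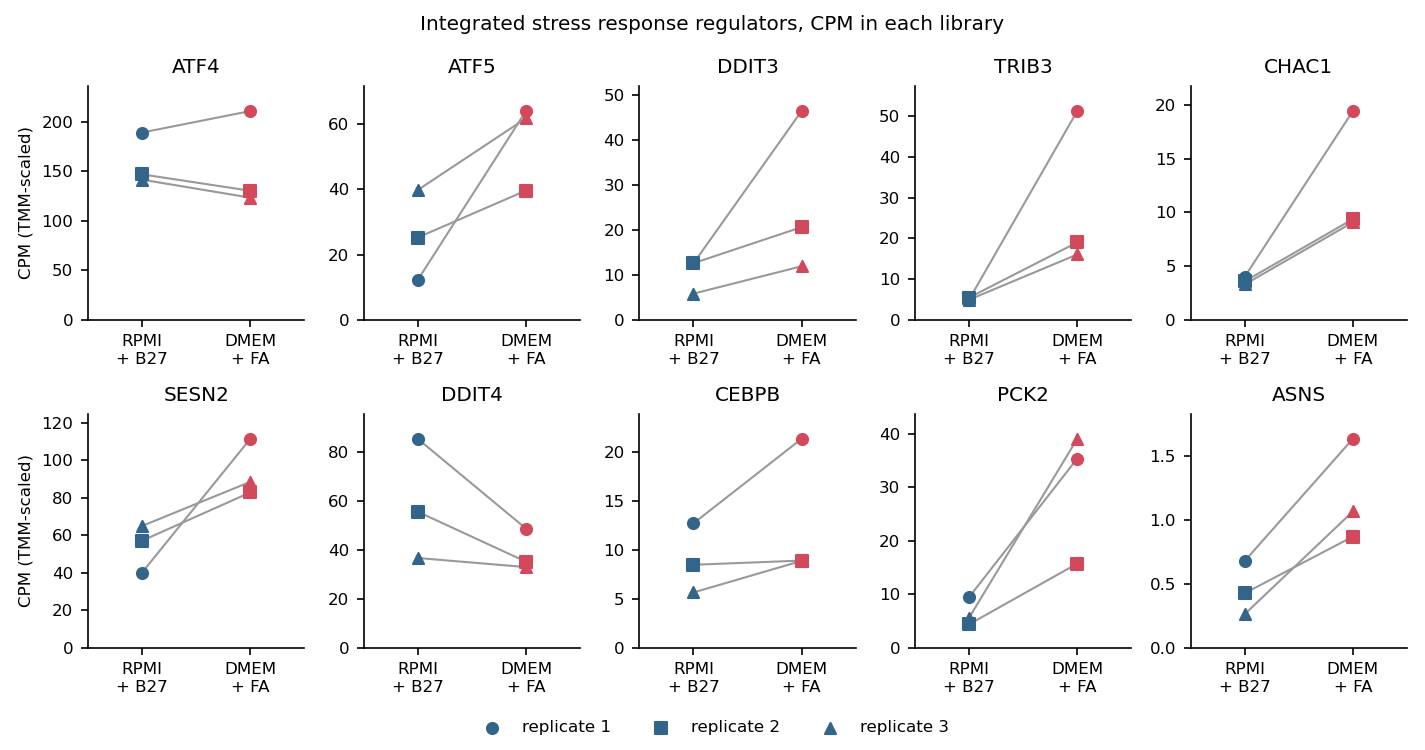
Level of each of the 10 genes in each library, in CPM scaled by the trimmed mean of M values (TMM), with a separate vertical axis from 0 for each gene and a line joining libraries of the same replicate number. Lines for TRIB3, CHAC1, SESN2, PCK2 and ASNS (its own reads alone) run upward with no overlap between media, and replicate 1 in DMEM plus fatty acids is the highest point for 8 of the 10 genes.

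ATF4, the effector transcription factor (chr22:39520559-39522686), was expressed at 189.3, 147.0 and 141.7 CPM in RPMI plus B27 replicates 1 to 3 and at 211.1, 130.5 and 123.5 CPM in DMEM plus fatty acids. Replicate 1 was the highest library in both media, and the groups overlapped. The fitted log2 fold change was -0.04 ± 0.23 (SE), with a 95% interval of -0.58 to 0.50 and an adjusted p of 0.945. The sign turned under total-count scaling and when single libraries were left out.

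ATF5, a related factor likewise under translational control (chr19:49928906-49933935), had 12.2, 25.2 and 39.8 CPM in RPMI plus B27 and 64.0, 39.6 and 61.8 CPM in DMEM plus fatty acids. The groups touched at RPMI plus B27 replicate 3 and DMEM plus fatty acids replicate 2. Its log2 fold change was 1.10 ± 0.40 with an adjusted p of 0.218, and 0.117 with the block. The replicate pairs differed by 2.39, 0.65 and 0.64 on the log2 scale, so that the largest gap lay in pair 1, where the RPMI plus B27 library was the lowest of all. The RefSeq interval of ATF5 shares 599 bases with that of NUP62, a nuclear pore gene with 1477 to 2811 counts per library (log2 fold change -0.09 ± 0.17).

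DDIT3 (CHOP, a C/EBP-related factor tied to cell death under lasting stress, chr12:57516588-57520517) had 12.5, 12.6 and 5.82 CPM in RPMI plus B27. In DMEM plus fatty acids it had 46.5, 20.6 and 11.9 CPM. Every pair was higher in DMEM plus fatty acids, by 1.89, 0.71 and 1.03 on the log2 scale, but the groups overlapped because replicate 3 was the lowest library in each medium. The log2 fold change was 1.35 ± 0.52 with an adjusted p of 0.239, and 0.0502 with the block. Without DMEM plus fatty acids replicate 1 the log2 fold change was 0.66. The interval of DDIT3 shares 65 bases with that of MARS1, the methionyl-tRNA synthetase gene, which had 2839 to 5186 counts per library (0.30 ± 0.15).

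CEBPB (C/EBP beta, a partner of ATF4 on its response elements, chr20:50190583-50192690) had 12.7, 8.47 and 5.63 CPM in RPMI plus B27 and 21.4, 8.90 and 8.86 CPM in DMEM plus fatty acids. Only replicate 1 of DMEM plus fatty acids lay above all RPMI plus B27 libraries. The log2 fold change was 0.54 ± 0.43 (95% interval -0.47 to 1.56, adjusted p 0.558), and it was -0.01 without that library. CEBPB shares its locus with the antisense gene CEBPB-AS1 (40 to 85 counts per library), and reads of both can be told apart only if the counting used strand, which is not stated.

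TRIB3 encodes a pseudokinase that binds ATF4 and dampens its activity, and is itself an ATF4 target (chr20:380760-397559). It was expressed at 4.94, 5.45 and 4.92 CPM in the RPMI plus B27 libraries, which lay within a narrow range. In DMEM plus fatty acids it had 51.3, 19.0 and 16.1 CPM, each above every RPMI plus B27 library, with replicate 1 far above the other two. The log2 fold change was 2.49 ± 0.45 (95% interval 1.44 to 3.55), with an adjusted p of 0.0520 without and 0.0274 with the block. Without DMEM plus fatty acids replicate 1 it was 1.78, with an adjusted p of 0.0586. TRIB3 had the smallest p of the 10 genes, at rank 223 among the 16107 tested.

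CHAC1 encodes a gamma-glutamylcyclotransferase that breaks down glutathione (chr15:40953471-40956512). Its promoter window holds the sequence match shown above, and whether ATF4 uses it here was not tested. In RPMI plus B27 CHAC1 had 3.99, 3.57 and 3.28 CPM. The DMEM plus fatty acids libraries had 19.4, 9.36 and 9.07 CPM, all above the other medium and again with replicate 1 the highest. Its log2 fold change was 1.80 ± 0.34 (95% interval 1.01 to 2.59), with an adjusted p of 0.0583 without and 0.0238 with the block. It was 1.35 without DMEM plus fatty acids replicate 1, and its adjusted p was 0.0915 to 0.166 over the fits that left out 1 library.

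SESN2, a leucine-sensing inhibitor of the growth kinase complex mTORC1 (chr1:28259518-28282491), had 40.1, 57.1 and 65.0 CPM in RPMI plus B27 and 111.6, 82.9 and 88.6 CPM in DMEM plus fatty acids. The groups did not overlap, although replicate 1 was the lowest library in the first medium and the highest in the second. The log2 fold change was 0.80 ± 0.20 (95% interval 0.33 to 1.28), with an adjusted p of 0.108 without and 0.0888 with the block. DESeq2's Wald test over all libraries gave an adjusted p of 0.0226. The edgeR adjusted p without the block reached 0.250 when DMEM plus fatty acids replicate 1 was left out. With the block and without the replicate 1 libraries of both media, the log2 fold change was 0.49 with an adjusted p of 0.0104.

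DDIT4 (REDD1, another inhibitor of mTORC1, also known as a target of hypoxia and of glucocorticoids, chr10:72273924-72276036) was the member with the lowest log2 fold change. It had 85.5, 55.6 and 36.7 CPM in RPMI plus B27 and 48.7, 35.1 and 32.9 CPM in DMEM plus fatty acids, with the replicate numbers ranked alike in both media. All 3 pairs were lower in DMEM plus fatty acids, by -0.81, -0.66 and -0.15 on the log2 scale, while the groups overlapped. The fitted value was -0.61 ± 0.31 (95% interval -1.33 to 0.11, adjusted p 0.355), and -0.25 without RPMI plus B27 replicate 1.

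PCK2, the mitochondrial form of phosphoenolpyruvate carboxykinase, links amino acid and citric acid cycle carbon to serine synthesis (chr14:24094171-24104125). It had 9.42, 4.34 and 5.56 CPM in RPMI plus B27 and 35.4, 15.7 and 39.1 CPM in DMEM plus fatty acids. The groups did not overlap, and unlike TRIB3 and CHAC1 its highest library was replicate 3 of DMEM plus fatty acids. The log2 fold change was 2.22 ± 0.42 (95% interval 1.24 to 3.20), with an adjusted p of 0.0583 without and 0.0131 with the block, and it stayed within 1.99 to 2.60 when single libraries were left out. PCK2 lies within the RefSeq interval of NRL, which had 32 to 95 counts per library.

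ASNS, asparagine synthetase, a classical ATF4 target (chr7:97851677-97928441), was at the lower edge of detection, with 18, 10 and 7 counts in RPMI plus B27 and 38, 26 and 36 counts in DMEM plus fatty acids. In CPM these were 0.678, 0.425 and 0.261 against 1.64, 0.869 and 1.07, without overlap between media for these reads alone. The log2 fold change was 1.37 ± 0.45 with an adjusted p of 0.183, and 0.0872 with the block. The table also lists CZ1P-ASNS, a readthrough gene whose RefSeq interval covers most of ASNS, with 1 to 13 counts per library, and reads that fit both genes may have been set aside as ambiguous. Both genes together gave 31, 11 and 18 counts in RPMI plus B27 and 40, 28 and 42 counts in DMEM plus fatty acids, or 1.17, 0.468 and 0.671 against 1.72, 0.936 and 1.24 CPM. Summed in this way, an alternative added after the data were seen, the media overlapped and the pairs differed by 1.47, 2.00 and 1.85-fold. Its log2 fold change was then 0.74 (adjusted p 0.414, and 0.193 with the block), so the level and the difference of ASNS are uncertain.

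**Figure D2:**
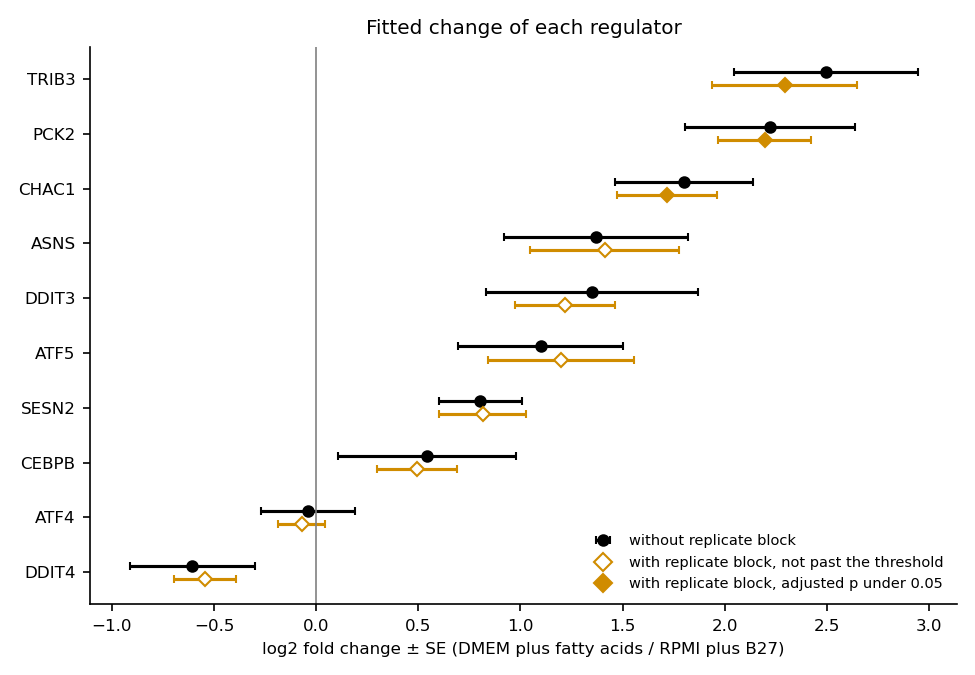
Fitted log2 fold change of each gene with its standard error (positive means higher in DMEM plus fatty acids), without (black circles) and with (orange diamonds) the replicate number as a block. Filled diamonds mark the 3 genes past an adjusted p of 0.05 with the block, and the values run from -0.61 for DDIT4 to 2.49 for TRIB3 without it.

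Levels were compared between genes per kilobase of the longest protein-coding transcript in GENCODE release 29. ATF4 was the most abundant in RPMI plus B27 at 78.9 ± 12.9 CPM per kb (SD, n = 3), followed by DDIT4 at 33.9 ± 14.1 and SESN2 at 15.7 ± 3.68 CPM per kb. The libraries of these 3 neighbours did not overlap. ATF5, DDIT3, CEBPB, PCK2, TRIB3 and CHAC1 followed, from 12.4 ± 6.67 down to 1.96 ± 0.194 CPM per kb, and neighbours among these 6 overlapped. By its own reads alone, ASNS was last in both media, at 0.193 ± 0.0892 and 0.505 ± 0.169 CPM per kb. Its level is uncertain, since reads shared with CZ1P-ASNS may have been set aside.

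In DMEM plus fatty acids ATF4 stayed first at 76.8 ± 24.1 CPM per kb, above SESN2 (27.3 ± 4.40) in every library. SESN2, ATF5, DDIT3 and DDIT4 came next, with overlap between neighbours, and DDIT4 moved from the second to the fifth place at 22.3 ± 4.88 CPM per kb. PCK2, TRIB3, CHAC1 and CEBPB followed in that order, down to 6.67 ± 3.68 CPM per kb for CEBPB. ATF4 transcripts were thus more abundant per length than those of its feedback gene TRIB3 in both media, by a smaller ratio in DMEM plus fatty acids. TRIB3 had 2.04 ± 0.119 CPM per kb in RPMI plus B27, against 78.9 for ATF4. In DMEM plus fatty acids it had 11.5 ± 7.83 CPM per kb, against 76.8 for ATF4.

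The profiles of the genes over the 6 libraries differed in how they weighted replicate 1. As a measure of likeness, each gene's log2 CPM was centred on its mean over the 6 libraries, and the root mean square difference between profiles was taken. ATF4 and DDIT4 were the closest pair, at 0.34 on the log2 scale, followed by TRIB3 and CHAC1 at 0.35, CHAC1 and ASNS (its own reads alone) at 0.36, and ATF5 and SESN2 at 0.39. Replicate 1 was the highest library of both media for ATF4, DDIT4, CEBPB, CHAC1 and ASNS. It was the lowest RPMI plus B27 library and the highest DMEM plus fatty acids library for ATF5 and SESN2. DMEM plus fatty acids replicate 1 also had the lowest summed fibroblast and stromal markers of all libraries, and RPMI plus B27 replicate 1 the highest, and their part in these differences was not tested.

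Reads of a gene as a share of those of its close relatives need no scaling between libraries. TRIB3 made up 1.64%, 2.32% and 2.02% of TRIB1, TRIB2 and TRIB3 reads in RPMI plus B27, against 18.7%, 8.47% and 7.92% in DMEM plus fatty acids. The shares did not overlap and differed by 9.71 percentage points (exact two-sided permutation test, p = 0.1, the smallest that 3 against 3 libraries can give), or by 6.20 points without DMEM plus fatty acids replicate 1. Its relative TRIB1 went the other way, from 178.8 to 242.4 CPM in RPMI plus B27 to 115.8 to 128.4 CPM in DMEM plus fatty acids (log2 fold change -0.75 ± 0.15, edgeR adjusted p 0.0642 without and 0.0438 with the block). TRIB2 had 50.7 to 56.2 against 71.0 to 106.7 CPM (0.67 ± 0.17, adjusted p 0.107).

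SESN2 made up 22.7%, 23.1% and 23.9% of the reads of SESN1, SESN2 and SESN3 in RPMI plus B27, a narrow range, and 39.4%, 27.4% and 26.2% in DMEM plus fatty acids. The shares did not overlap and differed by 7.79 percentage points, or by 3.58 without DMEM plus fatty acids replicate 1 (exact permutation p = 0.1 over all libraries). ATF5 gave 6.06%, 14.6% and 21.9% of the ATF4 and ATF5 reads against 23.3%, 23.3% and 33.4%, without overlap (exact permutation p = 0.1). CHAC1 gave 77.9%, 61.3% and 53.7% of CHAC1 and CHAC2 reads against 90.4%, 81.9% and 72.2%, where replicate 1 of the first medium lay above replicate 3 of the second (exact permutation p = 0.2). Each pair was higher in DMEM plus fatty acids for these 4 shares.

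CEBPB made up 11.5% ± 3.49 of the reads of CEBPA, CEBPB, CEBPD, CEBPE and CEBPG in RPMI plus B27 against 11.6% ± 2.65 (SD, n = 3) in the other medium (exact permutation p = 1). The shares of the groups overlapped. CEBPG, a partner of ATF4, had 36.7, 39.1 and 43.3 CPM against 100.3, 51.3 and 55.5 CPM, without overlap (log2 fold change 0.80 ± 0.26, adjusted p 0.177, and 0.129 with the block). PCK2 made up at least 99.6% of PCK1 and PCK2 reads in every library, since PCK1 had 0 to 2 counts.

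**Figure D3:**
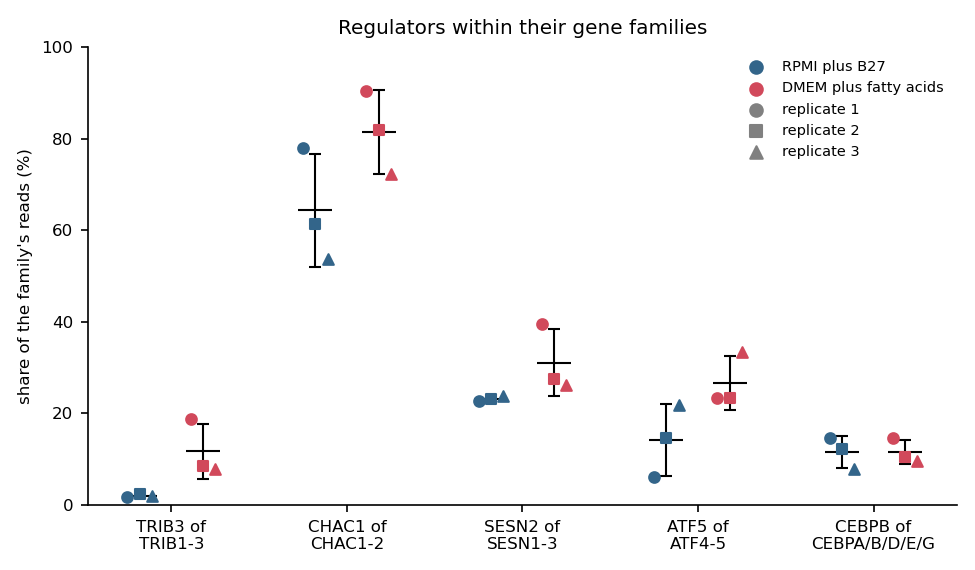
Reads of 5 of the genes as a percentage of the reads of the named relatives in the same library, with the mean and SD of 3 libraries in black. TRIB3, SESN2 and ATF5 shares do not overlap between media, CHAC1 shares overlap in 1 library of each medium, and CEBPB shares lie at 11.5% and 11.6% on average.

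Upstream of ATF4, transcripts of the machinery that starts the response had medians near 0. The eIF2 kinases and their upstream relay genes (11 tested) had a median of 0.12 on the log2 scale, with 7 higher, 4 lower and 0 passing in either fit (3 at an unadjusted p under 0.05). The 4 with the smallest p were DNAJC3, an inhibitor of the kinases PERK and PKR (0.63 ± 0.22), DELE1, which carries mitochondrial stress to the kinase HRI (0.38 ± 0.14), and the kinases EIF2AK2 (-0.30 ± 0.12) and EIF2AK4 (-0.26 ± 0.12), with adjusted p values up to 0.310. The 8 subunits of eIF2 and eIF2B had a median of 0.06 and the 5 eIF2 phosphatase subunits -0.16, with 0 passing in either fit, 1 and 0 at an unadjusted p under 0.05. Kinase activity and eIF2 phosphorylation are not measured by RNA.

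Of 14 partners and co-regulators of ATF4 with a leucine zipper or a related role, 1 passed. NUPR1, a small stress-induced chromatin protein, rose from 0.301, 0.213 and 0.0746 CPM to 7.75, 1.81 and 3.05 CPM (log2 fold change 4.39 ± 0.73, adjusted p 0.0427). JDP2, a repressor of the same protein class, had 0.71 ± 0.20 (adjusted p 0.135). ATF3, known as an early target of ATF4, lay in the other direction, at 30.4, 24.0 and 32.3 CPM in RPMI plus B27 against 20.2, 9.999 and 5.60 CPM in DMEM plus fatty acids (-1.28 ± 0.42, adjusted p 0.183, and 0.0797 with the block). The list as a whole had a median of 0.02, with 8 higher and 6 lower.

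Downstream, lists of genes known as ATF4 targets were mostly higher in DMEM plus fatty acids. Of 9 genes of serine synthesis and one-carbon metabolism, which PCK2 feeds with carbon, 8 were higher (median 0.94), 2 passed without the block and 4 with it (PSAT1, SHMT2, ALDH1L2 and PHGDH). PSAT1 rose from 12.9, 14.3 and 23.5 to 80.6, 43.2 and 81.0 CPM, and its highest libraries were replicates 1 and 3, as for PCK2. ALDH1L2, a mitochondrial folate enzyme, went from 7.76, 3.74 and 3.73 to 30.5, 10.8 and 19.1 CPM (1.98 ± 0.45, adjusted p 0.0864, and 0.0131 with the block).

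Of 9 amino acid transporter genes, 8 were higher (median 0.74), 2 passed without the block and 4 with it. SLC7A3, a cationic amino acid transporter, rose from 0.414, 0.298 and 0.559 to 2.33, 1.77 and 3.97 CPM (2.65 ± 0.44, adjusted p 0.0427). SLC7A11, the cystine carrier that supplies glutathione synthesis, had 3.62, 1.40 and 1.27 CPM against 33.1, 7.49 and 15.8 CPM, without overlap (3.15 ± 0.64, adjusted p 0.0676, and 0.00833 with the block). SLC7A11 and CHAC1, which supply and consume glutathione respectively, were thus both above their RPMI plus B27 range in every DMEM plus fatty acids library.

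Aminoacyl-tRNA synthetases and the tRNA exporter XPOT (13 genes) were all higher, at a median of 0.53, and 0 passed without the block, where 9 had an unadjusted p under 0.05. A single gene passed once replicates were blocked, SARS1, the seryl-tRNA synthetase (0.81 ± 0.16, adjusted p 0.0600 without and 0.0295 with it). WARS1, the tryptophanyl-tRNA synthetase, had the largest value of the list, from 43.8, 66.0 and 69.2 to 242.1, 104.9 and 136.4 CPM (1.43 ± 0.33, adjusted p 0.0866). Among 15 tested genes for secreted and other targets, 8 were higher and 7 lower, at a median of 0.09. INHBE passed upward and TXNIP, better known for its response to glucose, downward (adjusted p 0.0493 and 0.00478). With the block 2 passed in each direction, ADM2 joining INHBE, and ERO1A joining TXNIP. ADM2, a secreted peptide, went from 0.791, 0.468 and 0.447 to 4.74, 1.77 and 2.88 CPM (2.44 ± 0.46, adjusted p 0.0589 without and 0.0218 with the block). ERO1A, an oxidase of the endoplasmic reticulum, went from 193.4, 115.8 and 71.5 down to 59.9, 39.4 and 47.1 CPM, without overlap (-1.38 ± 0.35, adjusted p 0.109 and 0.0355). LAMP3, a lysosomal membrane protein, had 0.188, 0.596 and 0.708 against 16.9, 2.61 and 6.31 CPM (4.10 ± 0.80, adjusted p 0.0609 and 0.0502). Of 4 genes for the synthesis of other amino acids, 0 passed upward in either fit. ALDH18A1, of proline synthesis, fell in the fit with the block (-0.79 ± 0.17, adjusted p 0.0825 without and 0.0380 with it).

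**Figure D4:**
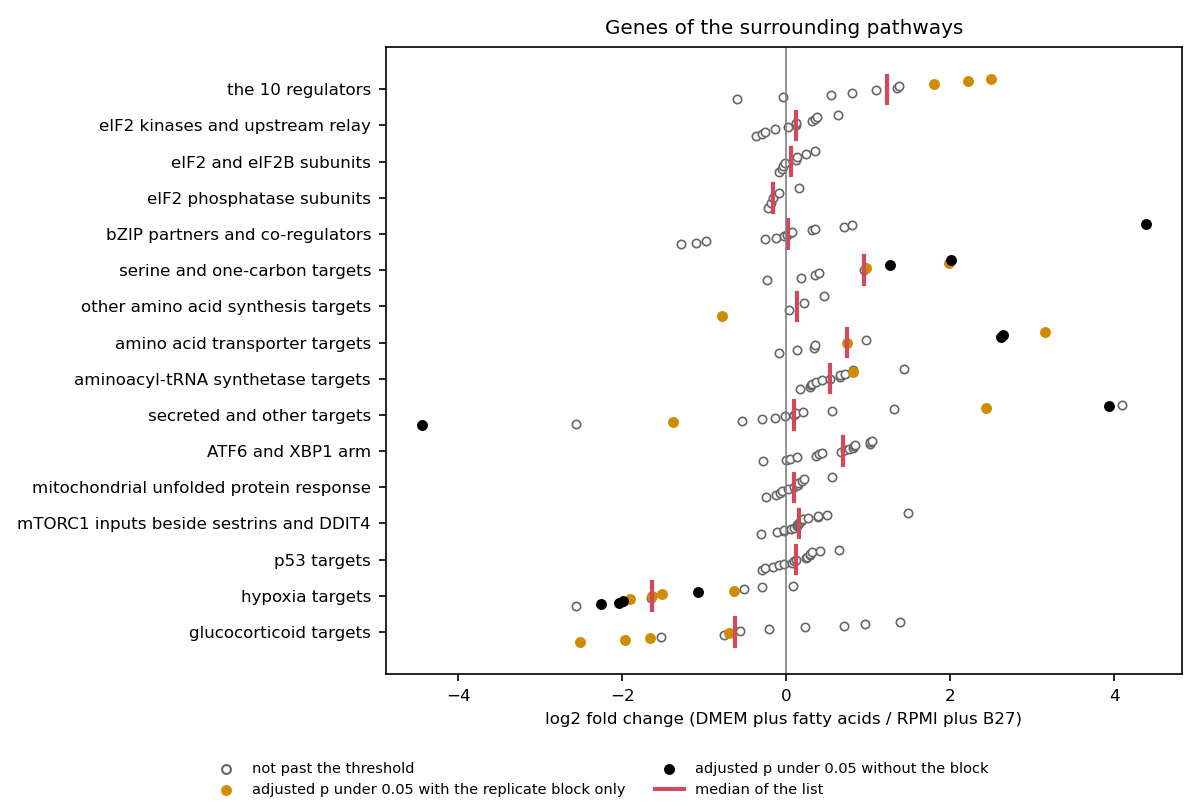
Log2 fold change (positive means higher in DMEM plus fatty acids) of each tested gene in 16 lists around the pathway, with 1 point a gene and a red bar at the list's median. Medians lie near 0 for the eIF2 kinases, eIF2 and its phosphatases, at 0.94 for serine and one-carbon targets, 0.74 for amino acid transporters and -1.64 for hypoxia targets.

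Genes of the ATF6 and XBP1 arm, the branch of the endoplasmic reticulum stress response that works beside eIF2 phosphorylation, had a median of 0.69 with 14 of 16 higher, and 0 passed in either fit (5 at an unadjusted p under 0.05). DNAJB9, a chaperone cofactor, had the smallest p, with 77.4, 110.1 and 111.0 CPM against 274.8, 172.8 and 156.7 CPM (1.02 ± 0.25, adjusted p 0.0998). Its highest library was DMEM plus fatty acids replicate 1, which was also the highest for TRIB3, CHAC1 and DDIT3. The media did not overlap for 5 of the 16, all higher, against 12.8% of all tested genes that were higher without overlap. HSPA5, a chaperone, had 382.8, 578.0 and 602.2 CPM in RPMI plus B27 against 1942.1, 819.8 and 454.7 CPM, so its pair 3 was lower. Pair 3 was also lower for CALR (818.8 to 506.8 CPM) and HSP90B1 (618.1 to 451.3 CPM). The rise of this list was thus not seen in every pair.

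The lists for the inputs to DDIT4 named above, hypoxia and glucocorticoids, had most of their genes lower in DMEM plus fatty acids. Other known inputs to DDIT4 are not covered by them. Of 13 tested hypoxia targets, 12 were lower (median -1.64), with 4 passing, AK4, LDHA, BNIP3 and P4HA2, and 8 with the block. BNIP3, a mitophagy receptor, went from 275.6, 175.9 and 137.5 to 66.7, 39.1 and 37.7 CPM. LDHA went from 1969.1, 1070.5 and 1115.6 to 394.2, 228.7 and 242.2 CPM. Of 12 glucocorticoid targets, 8 were lower and 4 higher (median -0.63). Without the block 0 passed, and 5 had an unadjusted p under 0.05, 4 lower and 1 higher. With the block 4 passed, all lower. The higher gene was MT2A, a metallothionein, with 1.51, 2.51 and 1.86 against 3.01, 4.72 and 7.65 CPM, without overlap (1.39 ± 0.40, edgeR adjusted p 0.141 without and 0.0714 with the block). KLF9, a transcription factor, had 16.1, 5.57 and 5.44 CPM against 1.64, 1.34 and 1.78 CPM (-2.51 ± 0.48, adjusted p 0.0600 without and 0.0289 with the block), and ERRFI1 and DUSP1 had -1.97 ± 0.38 and -1.66 ± 0.37. Whether these inputs acted on DDIT4 was not tested.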

How the data were processed

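The authors deposited raw counts per gene symbol, 1 table per library, with no normalization and without pooling replicates. STAR, HTSeq and the genome build hg38 are named in the submitters' processing notes, and per the labels' protocols the library kit keeps strand and selects mRNA. Annotation, versions and strand setting are not given in the sources used here. Rows that name no gene (84.4% to 87.2% of reads were in gene rows) were left out. Reads spanning 2 genes (3.90% to 4.15%) or aligned to several places (3.05% to 4.10%) are in rows of their own and were not used. How many of them fall on the genes described here was not measured.

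The test was edgeR's (version 4.0.16, R 4.3.3): filterByExpr (minimum count 10, minimum total 15), TMM, quasi-likelihood test between the media over 6 libraries, Benjamini-Hochberg over 16107 genes, threshold 0.05. Standard errors follow from the F statistic. CPM are TMM-scaled. The scripts were tested on simulated data. Alternatives were the replicate block, other scalings and filters, DESeq2 1.42.0 and leaving out each library; summed ASNS reads were added after the data were seen.

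The replicate numbers are shared in the sample titles. Deviations from the medium's mean correlated across genes at 0.31, 0.43 and 0.37 for libraries with the same number and at -0.24 to -0.14 otherwise. Each medium was centred on its own mean, so positive values for the same number push the others below 0, and those are no separate support. With 3 libraries per medium few pairings are possible, so these values cannot settle whether the numbers are pairs. The block was kept as an alternative fit.

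Groups came from the titles. The 10 genes and all lists were chosen with earlier results of these data known, and lists are given as counts and medians, with no set test. Besides the 10 genes, up to 4 genes with the smallest p per list are named, and the 5 genes closest to the median profile of the 10 among tested genes with at least 5 CPM (log2 CPM with a prior count of 2). CEBPB-AS1, NRL and CZ1P-ASNS are named for their overlap, as are NUP62 and MARS1. Cell type markers, ERO1A, HSPA5, CALR and HSP90B1 were named after their values were seen. Loci and promoters are from RefSeq (GRCh38.p14). Intervals and the limit from a count of 0 (3 counts) cover counting error only where they concern 1 library.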

Additional observations from a re-analysis of the deposited data

How the results depend on the processing

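The count of called genes (219) was 770 with the replicate block, 1232 by DESeq2, 539 with no filter, 119 with at least 10 counts in every library, and 3 to 131 when 1 library was left out. Among the 10 regulators, 0 passed without the block (7 at an unadjusted p under 0.05), 3 with it, 2 under total-count scaling (TRIB3 and CHAC1), 4 by DESeq2 and 3 with no filter, all higher in DMEM plus fatty acids. The shares of all genes called higher in these 5 fits were 0.292%, 1.36%, 0.459%, 2.08% (of 17767 genes with an adjusted p) and 0.467% (of 26979 genes). Blocked fits without replicate 1, 2 or 3 of both media, added after seeing the data and with 1 residual degree of freedom each, called 1898, 413 and 913 genes and 6, 4 and 4 of the regulators, where 4.34%, 0.447% and 1.47% of genes were called higher. Beyond TRIB3, CHAC1 and PCK2 these were ATF5, DDIT3 and SESN2 without replicate 1, DDIT3 without replicate 2, and DDIT4 (downward) without replicate 3. Under RLE scaling, the stricter filter (which dropped ASNS) and each of the 6 fits without 1 library, 0 passed (4 to 7 at an unadjusted p under 0.05). Total-count scaling moved the median over all genes from 0.01 to 0.12 on the log2 scale. ATF4 then had 0.060, below that median, and -0.33 to 0.10 without 1 library. CEBPB had -0.011 to 0.88 without 1 library. The other 8 genes kept their sign in every alternative run here. The cause of these shifts was not tested. With the replicate block, shares within gene families gave the same mean differences as without it, and an exact sign-flip test over 3 pairs cannot go below 0.25. With ASNS and CZ1P-ASNS reads summed, also added after seeing the data, 219 genes and 0 regulators were called (6 at an unadjusted p under 0.05), or 768 and 3 with the block, and the regulators' median fell from 1.22 to 0.95. The 3 libraries per medium limit what can be called.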

Other observations

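Besides the 10 regulators themselves, the 5 genes whose profile over the 6 libraries was closest to their median profile were EPN3, CADPS2, TSPAN32, OSBPL3 and SHMT2, at root mean square differences of 0.13, 0.16, 0.19, 0.20 and 0.21 on the log2 scale, out of 11420 candidates. The median profile ran at -0.35, -0.39 and -0.90 in RPMI plus B27 replicates 1 to 3 and at 1.11, 0.25 and 0.40 in DMEM plus fatty acids. SHMT2, the mitochondrial serine hydroxymethyltransferase, was also on the list of ATF4 targets, with 77.5, 65.6 and 64.9 CPM against 207.8, 118.7 and 174.1 CPM. EPN3 encodes an endocytic adaptor and OSBPL3 an oxysterol-binding protein.

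Chaperones and proteases of the mitochondrial unfolded protein response had a median of 0.10 on the log2 scale, where 7 of 11 were higher and 0 passing in either fit (1 at an unadjusted p under 0.05, HSPA9 at 0.56 ± 0.16). Targets of p53, another known regulator of sestrins, had a median of 0.12 with 10 of 15 higher and 0 passing (0 at an unadjusted p under 0.05). Among 18 other components of the mTORC1 input, on which SESN2 and DDIT4 act, 14 were higher at a median of 0.15, and 0 passed in either fit (4 at an unadjusted p under 0.05). DEPDC5, of the GATOR1 complex, had 23.9, 23.1 and 22.4 CPM against 30.6, 33.3 and 34.4 CPM (0.50 ± 0.12, adjusted p 0.0978), and DEPTOR, an mTOR-binding inhibitor, 1.49 ± 0.39 (adjusted p 0.120).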
